A study of Homo sapiens with 5 samples.

Results

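The day 10 FOXA1 knockdown in LNCaP cells was read from 2 of the study's 5 bead arrays, 1 labelled shFOXA1 and 1 labelled shCtr, with no other array on either side. The comparison covered every probe with 1 gene symbol and a detection p-value below 0.01 on at least 1 of the 2 arrays, which gave 14865 named probes for 11143 genes. LNCaP is an androgen-responsive human prostate cancer cell line. Both cultures carry the genotype label WT and had been infected with a lentivirus, which delivered a short hairpin RNA against FOXA1 in the first and a control hairpin in the second, and both were selected with puromycin. The hairpin sequence is not given in the labels, nor is it given for either array whether vehicle was added over the last 3 days. A further shFOXA1 culture of day 10 received 10 µM LY2157299 for 3 days, and its values are given beside some genes. LY2157299, also called galunisertib, blocks the kinase of TGFBR1. The study's title concerns repression of TGF-beta signalling by FOXA1 in prostate cancer.

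FOXA1 is a forkhead transcription factor that can bind its sites in closed chromatin and is therefore called a pioneer factor. In luminal prostate cells it shares many binding regions with the androgen receptor, and it is needed for the usual placement of that receptor on chromatin. TGF-beta ligands bind the type II receptor TGFBR2, which activates the type I receptor TGFBR1, and SMAD2 and SMAD3 then carry the signal to the nucleus, where typical targets encode matrix, contractile and growth-inhibitory proteins.

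Each group had 1 array, so no difference below has a replicate check, a test or a standard error, and precision is limited by the number of arrays. Levels are normalised log2 intensities, differences are shFOXA1 minus shCtr on the log2 scale, and a gene is called higher or lower when the 2 arrays differed at least 2-fold. An undetected probe on the dimmer array was set to that array's detection floor, and the difference is then written "at least". The arrays were alike in range: 18035 of the 47306 probes were detected with shFOXA1 and 17955 with shCtr, the mean raw intensity was 285 with shFOXA1 and 305 with shCtr, and the floor was 4.67 with shFOXA1 and 4.68 with shCtr. The error within an array was taken from the 2099 genes with exactly 2 probes detected on both arrays, whose disagreement gives an SD of 0.17 for a log2 difference read by 1 probe. That error holds for the measurement alone, since variation between cultures was not sampled. Of 13 luminal and LNCaP markers with a named probe, 12 were detected on both arrays. Of 8 basal markers 3 (KRT14, KRT15 and LAMB3) were detected with shFOXA1 and 1 (KRT14) with shCtr, with KRT5 undetected on both. Of 11 leukocyte markers 2 were detected with shFOXA1 and 1 with shCtr, with PTPRC and CD3E undetected on both. The fibroblast list had 1 detected marker with shFOXA1, COL1A1 at 4.70 and so at the floor, and 0 with shCtr. VWF was the 1 endothelial marker detected on either array. These are bulk RNA values, in which fewer cells of a kind and less RNA per cell cannot be told apart.

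FOXA1 itself had a log2 level of 11.26 with shFOXA1 and 11.30 with shFOXA1 and LY2157299, against 11.82 with shCtr. The shFOXA1 array therefore held 67.8% of the shCtr signal, a difference of -0.56 that is 3.32 times the probe SD and short of 2-fold. A total of 244 of the 11143 genes had a difference as low or lower, so the targeted gene was not among the calls. It was read by 1 probe. Its paralogs FOXA2 and FOXA3 were not detected on either array. Among 15 measured other forkhead genes, 0 were called. FOXM1, which drives mitotic genes, read 6.49 with shFOXA1 and 7.12 with shCtr, while FOXO1, a growth-factor-restrained forkhead factor, read 6.07 with shFOXA1 and 5.50 with shCtr.

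Of the 11143 genes, 125 (1.12%) were higher with shFOXA1 and 42 (0.377%) were lower. Higher genes thus made up 74.9% of the calls, but 64.3% after median scaling and 65.1% in the authors' processed values. Median scaling also moved the median difference of all genes to -0.13, against -0.01 in the main values, so medians of lists are read against -0.01. At 1.5-fold, 367 genes (3.29%) were higher and 204 (1.83%) lower. Counts of called list members below are to be read against these shares. Higher calls (1.12%) and lower calls (0.377%) were both rare, so a list without any is no result about that list. The middle of the distribution was narrow, with 94.9% of genes within 1.5-fold. A difference of at least 4-fold was seen in 22 genes upward and 7 downward, and 2 genes, RGS4 and S100A9, passed 8-fold. The higher genes were mostly dim in the control, with a median shCtr level of 5.76 against 7.03 for all genes, and their median with shFOXA1 was 7.50. The lower genes had a median of 6.33 with shFOXA1 and 7.65 with shCtr. Both groups were picked by the difference between these same 2 arrays, so these levels are in part set by that choice. Of the higher genes, 15 were undetected with shCtr. Just past the threshold lay NMT2 at 1.01 and ZNF121 at -1.01.

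**Figure D1:**
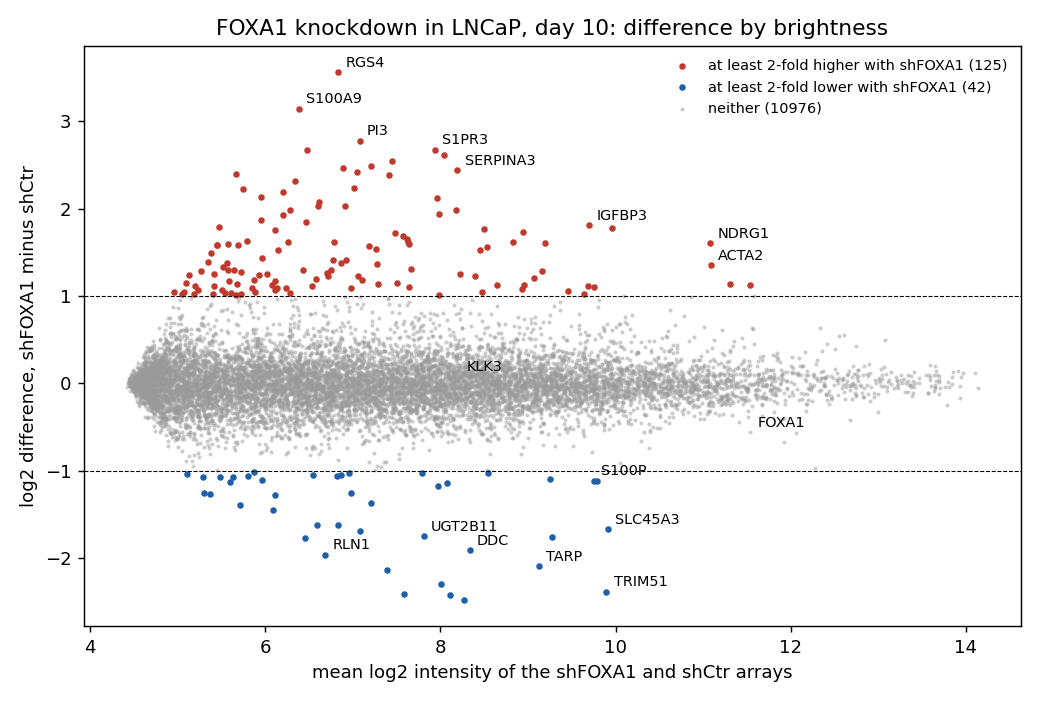
Log2 difference (shFOXA1 minus shCtr, vertical axis) against the mean log2 intensity of both arrays (horizontal axis) for 11143 genes, 1 point per gene, with dashed lines at 2-fold. The 125 higher genes reach 3.56 (RGS4), the 42 lower genes reach -2.48, and FOXA1 lies at -0.56 between the dashed lines.

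The genes furthest above the control were of mixed kinds, among them signalling proteins, secreted defence proteins, enzymes and a keratin pseudogene. RGS4, which speeds up GTP hydrolysis by G proteins, read 8.61 with shFOXA1 and 7.63 with LY2157299 added, against 5.05 with shCtr, a difference of 3.56 or 11.8-fold that ranged between 2.14 and 4.27 over the processing alternatives. S100A9, a calcium-binding protein of neutrophils and inflamed epithelium, read 7.96 with shFOXA1 and 8.19 with LY2157299, against 4.81 with shCtr, a difference of 3.15 (8.85-fold) that ranged between 1.68 and 4.13 over the alternatives. PI3, the elastase inhibitor elafin, read 8.47 with shFOXA1 and 9.21 with LY2157299, against 5.69 with shCtr. The shCtr values of RGS4 and S100A9 lay near the floor, and those of both shFOXA1 cultures well above it. S1PR3, a receptor for sphingosine-1-phosphate, read 9.28 with shFOXA1 and 6.60 with shCtr. SGK1, a kinase induced by glucocorticoids and growth factors, read 9.35 with shFOXA1 and 9.23 with LY2157299, against 6.74 with shCtr. Its 3 measured probes gave differences of 2.62, 2.49 and 2.69. PIP, a secreted protein of apocrine and breast epithelium, read 8.73 with shFOXA1 and 8.28 with LY2157299, against 6.18 with shCtr. TCIM, a regulator of transcription, read 8.13 with shFOXA1 and 6.76 with LY2157299, against 5.66 with shCtr. REPS2, a protein of receptor endocytosis, read 8.25 with shFOXA1 and 8.16 with LY2157299, against 5.83 with shCtr. For SGK1 and REPS2 the LY2157299 array lay within 1 probe SD of the shFOXA1 array. PGLYRP2, an enzyme that cleaves bacterial peptidoglycan, read 8.61 with shFOXA1 and 6.23 with shCtr. CA4, a membrane-bound carbonic anhydrase, read 7.50 with shFOXA1 and 5.18 with shCtr. KRT16P2, a keratin pseudogene whose probe may also read its parent gene, was at least 2.39 higher.

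The genes furthest below the control included a family of TRIM genes, a relaxin and several genes with an androgen link. GRM5P1, a pseudogene, read 7.03 with shFOXA1 and 5.97 with LY2157299, against 9.51 with shCtr. TRIM51 read 8.70 with shFOXA1 and 7.76 with LY2157299, against 11.09 with shCtr (5.22-fold lower). TRIM48 read 6.90 with shFOXA1 and 5.99 with LY2157299, against 9.32 with shCtr. All 3 had their lowest value in the culture that also received the inhibitor. The TRIM48, TRIM49 and TRIM51 list, which also holds GRM5P1, had 7 measured members and a median of -2.38. Of these members 6 were lower, against 0.377% of all genes. The exception was TRIM49, which lay near the floor. The TRIM genes of this list are near-copies of each other, as are the UGT2B, UGT1A and AKR1C genes, so a probe of 1 member may read another and single members are uncertain. RLN1, a relaxin peptide hormone, read 5.70 with shFOXA1 and 5.38 with LY2157299, against 7.66 with shCtr. DDC, the decarboxylase that makes dopamine and serotonin and an androgen receptor coactivator, read 7.38 with shFOXA1 and 7.16 with LY2157299, against 9.29 with shCtr. PEG3, an imprinted zinc finger gene, read 8.39 with shFOXA1 and 7.45 with LY2157299, against 10.15 with shCtr. ARG2, the mitochondrial arginase, read 6.02 with shFOXA1 and 5.62 with LY2157299, against 7.65 with shCtr, and was the 1 lower gene of 14 measured polyamine genes. BCHE, which hydrolyses choline esters, was lower on both of its probes, by -1.62 and -1.16. MAST4, a serine/threonine kinase, read 5.01 with shFOXA1 and 5.12 with LY2157299, against 6.41 with shCtr. INPP4B, a phosphatase that restrains phosphoinositide signalling, read 5.47 with shFOXA1 and 6.75 with shCtr.

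**Figure D2:**
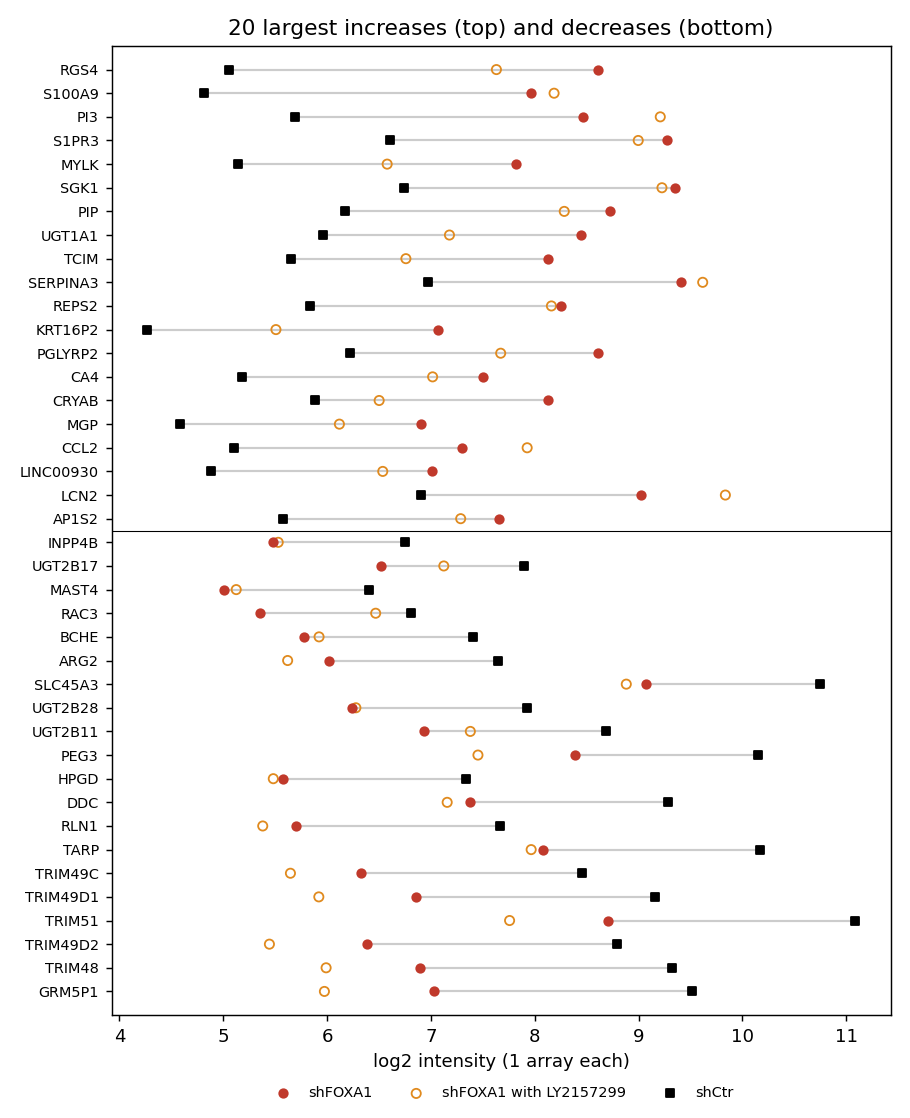
Log2 intensity (horizontal axis) of the 20 genes with the largest increase (upper block) and the 20 with the largest decrease (lower block), with 1 point per array for shFOXA1, shFOXA1 with LY2157299 and shCtr. The LY2157299 array lies on the shFOXA1 side of shCtr for all 40 genes, for example RGS4 at 7.63 and TRIM51 at 7.76. These genes were chosen by their distance from that same shCtr array. The side on which the LY2157299 array lies is therefore no independent check.

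Ligands, receptors and SMADs of the TGF-beta pathway had a list median near that of all genes, whereas its target genes lay above the control as a list. The list of ligands, receptors and SMADs had 27 measured genes with 2 calls upward, against 1.12% of all genes. Its median of 0.04 moved to -0.04 under median scaling, where the median of all genes was -0.13. TGFBR3, the co-receptor betaglycan, read 7.34 with shFOXA1 and 7.70 with LY2157299, against 6.08 with shCtr. The ligand TGFB3 was at least 1.05 higher, with a level of 5.73 with shFOXA1. TGFBR2 was detected with shFOXA1 at 4.89 and not with shCtr, which bounds its difference at only 0.21. SMAD3 read 5.79 with shFOXA1 and 5.51 with shCtr, and the inhibitory SMAD7 read 5.78 with shFOXA1 and 5.67 with shCtr. Both of these differences are under 2 probe SDs. Of 33 measured TGF-beta target genes, 8 passed 2-fold upward and 0 downward, against 1.12% and 0.377% of all genes. At least 1.5-fold higher were 14 of them, against 3.29% of all genes, and the median was 0.47. The list was drawn up with earlier results of these arrays known, and 1 of its 8 calls, NEDD9, was not seen by a second probe, as given below. Its largest difference, 2.24, was that of CRYAB, a small heat shock protein also counted among the chaperones below. IGFBP3, which binds insulin-like growth factors, read 10.60 with shFOXA1 and 10.00 with LY2157299, against 8.79 with shCtr, and its second probe gave 1.97 beside 1.81. THBS1, a matrix protein that can activate latent TGF-beta, read 9.21 with shFOXA1 and 8.97 with LY2157299, against 7.68 with shCtr. CCN2, a matricellular growth factor, read 6.29 with shFOXA1 and 4.89 with LY2157299, against 4.99 with shCtr. For CCN2 the inhibitor array was at the control level, whereas for THBS1 it was near the shFOXA1 level. SNAI2, a repressor linked to epithelial-mesenchymal transition, read 7.27 with shFOXA1 and 7.47 with LY2157299, against 5.29 with shCtr. CDKN2B, the cell cycle inhibitor p15, read 6.55 with shFOXA1 and 5.83 with LY2157299, against 5.31 with shCtr. PMEPA1, a common target and feedback inhibitor of the pathway, did not follow: it read 9.57 with shFOXA1 and 8.87 with LY2157299, against 9.74 with shCtr. Of the 8 measured transition regulators, cadherins and vimentin, SNAI2 was the 1 call. VIM read 7.41 with shFOXA1 and 6.94 with shCtr, CDH1 read 11.48 with shFOXA1 and 11.12 with shCtr, and CDH2 and ZEB1 were not detected. None of 30 epithelial junction genes was called.

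Smooth-muscle and contractile genes were among the larger differences. Of 38 measured actin and contractile genes 4 were called higher and none lower, against 1.12% and 0.377% of all genes. Above 0 lay 32 of them, against 47.4% of all genes, with a median of 0.31. MYLK, the kinase that phosphorylates myosin light chain, read 7.82 with shFOXA1 and 6.58 with LY2157299, against 5.15 with shCtr. ACTG2, an enteric smooth muscle actin, read 8.35 with shFOXA1 and 7.95 with LY2157299, against 6.62 with shCtr. ACTA2, the vascular smooth muscle actin, read 11.77 with shFOXA1 and 10.91 with LY2157299, against 10.41 with shCtr. All 3 lay in the order shFOXA1, inhibitor, control. ACTA1, the skeletal actin, read 6.38 with shFOXA1 and 6.35 with LY2157299, against 4.78 with shCtr, so its inhibitor value stayed near shFOXA1. Actin genes are similar in sequence, and the calls on ACTA1, ACTA2 and ACTG2 may share signal. TMSB4X, which binds actin monomers, read 12.09 with shFOXA1 and 12.46 with LY2157299, against 10.97 with shCtr, so its inhibitor value was the highest. Against 1.12% of all genes, 2 of 27 matrix and integrin genes and 2 of 19 proteases and inhibitors were higher. The matrix genes were THBS1 and LAMB3, a laminin chain of epithelial basement membrane that was at least 1.03 higher. The others were MMP7 and SERPINE2 (1.19), an inhibitor of thrombin and plasminogen activators. MMP7, the epithelial protease matrilysin, read 9.80 with shFOXA1 and 10.12 with LY2157299, against 8.52 with shCtr. MGP, which restrains calcification, was at least 2.23 higher. Fibroblast markers stood at the floor, as given above.

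Chemokines, cytokine-responsive genes and mucosal defence proteins were among the higher genes. Of 30 measured inflammatory and NF-kB genes 7 were higher and none was lower, against 1.12% and 0.377% of all genes, and the median was 0.37. CXCL8, the neutrophil attractant interleukin 8, read 9.38 with shFOXA1 and 10.42 with LY2157299, against 7.61 with shCtr. CCL2, a monocyte attractant, read 7.30 with shFOXA1 and 7.93 with LY2157299, against 5.11 with shCtr. LCN2, which sequesters bacterial iron carriers, read 9.03 with shFOXA1 and 9.84 with LY2157299, against 6.90 with shCtr. In each of these genes the inhibitor array was the highest of the 3. NFKBIZ, a nuclear partner of NF-kB, read 7.40 with shFOXA1 and 7.11 with LY2157299, against 6.10 with shCtr, so its inhibitor value was not the highest. SAA1, an acute phase apolipoprotein, was higher on both of its probes, each by 1.76. IL32, a cytokine of epithelium and lymphocytes, read 7.48 with shFOXA1 and 8.01 with LY2157299, against 6.07 with shCtr. Of 21 acute phase, antiprotease and mucosal proteins 8 were called, each of them higher, against 1.12% of all genes, beside a median of 0.32. SERPINA3, an inhibitor of neutrophil cathepsin G, read 9.41 with shFOXA1 and 9.62 with LY2157299, against 6.97 with shCtr. AGR3, a secretory-pathway disulfide isomerase, read 7.16 with shFOXA1 and 5.82 with LY2157299, against 5.23 with shCtr. SLPI, a leukocyte protease inhibitor, read 7.08 with shFOXA1 and 5.97 with shCtr. In this list 16 genes lay above 0 and 5 below, and 2 were at least 1.5-fold lower. The lowest was ORM2, at -0.77, and ORM1 differed by -0.48. MSMB, a major secretory protein of prostate, differed by -0.61 and was not a call. Leukocyte markers sat beside this. CD68 read 8.58 with shFOXA1 and 8.24 with shCtr on its brightest probe, a difference of 0.34, and its other probes gave 0.83 and 0.50. LYZ was at least 0.30 higher and near the floor. The summed linear signal of all 11 leukocyte markers, detected or not, was 491 with shFOXA1 and 347 with shCtr. That sum takes the brightest probe on each array separately. For CD68 it was ILMN_1714861 at 8.79 with shFOXA1 but ILMN_2359907 at 8.24 with shCtr, so the sums do not compare like with like. The part of leukocyte markers in the inflammatory genes was not tested. Of 41 interferon and antigen presentation genes 2 were higher, against 1.12% of all genes, and the median was 0.14. The 2 were the guanylate-binding proteins GBP1 (1.63) and GBP2 (1.56). CXCL10, an interferon-induced chemokine, read 7.33 with shFOXA1 and 6.72 with LY2157299, against 6.10 with shCtr. IFNGR1, an interferon gamma receptor chain, read 9.67 with shFOXA1 and 9.98 with LY2157299, against 8.47 with shCtr. HLA-DMB, a class II peptide-loading chain, went the other way, with 6.35 with shFOXA1 and 7.61 with shCtr. Of 10 measured S100 genes, S100A9 and S100A8 were higher, S100A8 by at least 1.49. S100P was the lower one, at 9.20 with shFOXA1 and 6.85 with LY2157299, against 10.31 with shCtr.

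Most immediate early and glucocorticoid-responsive genes lay above 0, where 47.4% of all genes lay. Calls in both lists stand against 1.12% of all genes higher and 0.377% lower. Of 21 AP-1 and immediate early genes 1 was higher, KLF6 (1.11), a zinc finger factor, and 16 lay above 0 with a median of 0.31. JUN, a subunit of AP-1, read 9.09 with shFOXA1 and 8.20 with shCtr, 1.85-fold and short of the threshold. Of 20 glucocorticoid response genes 15 lay above 0, with a median of 0.31, and 2 were higher, SGK1 and TIPARP (1.18), and S100P was lower. FKBP5, a chaperone partner induced by both androgen and glucocorticoid receptors, read 11.04 with shFOXA1 and 10.19 with shCtr, whereas TSC22D3, a typical glucocorticoid target, differed by -0.52. The glucocorticoid receptor gene NR3C1 was not detected on either array.

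Promoter sequences of genes from these groups are shown because each holds a perfect match to a motif that bears on them, or because its neighbours were called together. They are from RefSeq on GRCh38.p14, 250 bases before to 50 after the gene start, written 5′ to 3′ on the gene's strand, and capitals mark the match. The motifs below were searched on both strands by script: TGTTTAC for forkhead factors such as FOXA1, TGAGTCA for AP-1, and for NF-kB the letters GGG, then NN, then TTTCC. The ACTA2 promoter is on the minus strand at chr10:88991288-88991587, and its forkhead match starts 221 bases before the gene start. The CXCL8 promoter is on the plus strand at chr4:73740319-73740618, with an AP-1 match 137 bases before the start. The MMP7 promoter is on the minus strand at chr11:102530698-102530997, with an AP-1 match 67 bases before the start. The NFKBIZ promoter is on the plus strand at chr3:101827740-101828039, with an NF-kB match 223 bases before the start.
ACTA2: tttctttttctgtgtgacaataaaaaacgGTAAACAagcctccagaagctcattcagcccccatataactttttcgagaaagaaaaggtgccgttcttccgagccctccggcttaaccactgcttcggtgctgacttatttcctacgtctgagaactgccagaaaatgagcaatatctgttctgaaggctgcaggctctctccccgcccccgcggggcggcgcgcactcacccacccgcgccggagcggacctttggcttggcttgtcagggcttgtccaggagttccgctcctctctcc
CXCL8: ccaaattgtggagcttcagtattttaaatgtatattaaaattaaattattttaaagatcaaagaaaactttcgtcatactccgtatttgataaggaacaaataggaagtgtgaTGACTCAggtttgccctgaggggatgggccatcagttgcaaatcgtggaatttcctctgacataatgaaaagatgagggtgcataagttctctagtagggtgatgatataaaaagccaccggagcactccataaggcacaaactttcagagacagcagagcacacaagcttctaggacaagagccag
MMP7: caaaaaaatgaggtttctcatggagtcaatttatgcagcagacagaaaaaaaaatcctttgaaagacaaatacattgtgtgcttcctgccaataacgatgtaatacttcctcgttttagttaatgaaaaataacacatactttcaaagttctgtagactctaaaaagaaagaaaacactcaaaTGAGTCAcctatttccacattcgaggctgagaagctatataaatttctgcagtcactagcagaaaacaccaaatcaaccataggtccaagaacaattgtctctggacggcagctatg
NFKBIZ: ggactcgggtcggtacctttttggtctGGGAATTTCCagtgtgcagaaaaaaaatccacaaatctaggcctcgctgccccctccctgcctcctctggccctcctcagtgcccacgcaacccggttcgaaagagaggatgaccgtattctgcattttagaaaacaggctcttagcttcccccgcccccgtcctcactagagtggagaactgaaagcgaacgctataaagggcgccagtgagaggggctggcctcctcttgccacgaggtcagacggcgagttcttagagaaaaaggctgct

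Among the 99 higher genes with a promoter in the table, 5 (5.05%) held the forkhead motif, namely ACTA2, KIAA0408, KYNU, MAP3K8 and SDCBP2, against 2.32% of 8976 measured genes and 3.41% of all 27305 promoters. The AP-1 motif stood in 5 (5.05%), namely ANXA2, CXCL8, LINC00930, MMP7 and SDCBP2, against 2.74% of measured genes and 4.92% of all promoters. The NF-kB motif stood in 3 (3.03%), namely IL32, NFKBIZ and SERPINB7, against 2.18% of measured genes and 1.92% of all promoters. Among 35 lower genes with a promoter, 0 held any of the motifs. These are matches of letters in a short window, in few genes, and are neither binding sites nor causes. Genes on chromosome 8 were left out of the search.

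Luminal and androgen-regulated genes moved in both directions. Of 26 measured luminal transcription factors, 2 were called higher and none lower, against 1.12% and 0.377% of all genes. Their median was 0.00 (of either sign over the alternative settings). MAF, a basic leucine zipper factor, read 8.95 with shFOXA1 and 8.77 with LY2157299, against 7.01 with shCtr. SOX9, a factor of prostate buds and basal progenitors, read 7.07 with shFOXA1 and 6.80 with LY2157299, against 5.46 with shCtr. HOXB13 and GATA2, partners of FOXA1 in prostate, gave -0.13 and -0.10, within 1 probe SD of 0. SPDEF, an epithelial ETS factor of secretory cells, read 8.51 with shFOXA1 and 9.32 with shCtr, and NFIB, a partner of FOXA1, read 10.60 with shFOXA1 and 9.60 with shCtr, just short of 2-fold. The androgen receptor target list had 47 measured genes and a median of -0.14. Of these genes 3 were called upward and 4 downward, against 1.12% and 0.377% of all genes. TARP, transcribed in prostate from within the locus of a T-cell receptor chain, read 8.08 with shFOXA1 and 7.97 with LY2157299, against 10.17 with shCtr. SLC45A3, the prostate membrane protein prostein, read 9.07 with shFOXA1 and 8.88 with LY2157299, against 10.75 with shCtr. LRIG1, which dampens growth factor receptors, was lower on both of its probes, by -1.18 and -1.03. In all of these the inhibitor array stayed near the shFOXA1 value. NDRG1, a stress- and androgen-induced gene, read 11.88 with shFOXA1 and 10.70 with LY2157299, against 10.28 with shCtr. TRPM8, a cold- and menthol-gated channel, was higher on both of its probes, by 1.06 and 1.30. The best known targets were not calls: KLK3, which encodes PSA, read 8.26 with shFOXA1 and 8.18 with shCtr, KLK2 read 8.26 with shFOXA1 and 7.57 with shCtr, and TMPRSS2 read 11.38 with shFOXA1 and 11.53 with shCtr. All 10 measured members of the keratin list lay above 0 in the main values, with a median of 0.57. Its 2 calls were no keratins themselves but the pseudogene KRT16P2 and KRTAP13-2, a keratin-associated hair protein (1.12). KRT19, a luminal keratin, read 8.13 with shFOXA1 and 7.46 with shCtr, and KRT8, another one, read 9.69 with shFOXA1 and 9.19 with shCtr. KRT6C, a stress keratin not on that list, was at least 1.39 higher. DDC was the 1 call among 11 measured neuroendocrine and neuronal markers, of which UCHL1 gave -0.94 and VGF 0.91.

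Enzymes that conjugate and reduce steroids were called in opposite directions. Of 5 measured UGT2B enzymes, which glucuronidate androgens among other substrates, 4 were lower, against 0.377% of all genes, and the median was -1.37. UGT2B11 read 6.94 with shFOXA1 and 7.38 with LY2157299, against 8.69 with shCtr. UGT2B28 read 6.24 with shFOXA1 and 6.28 with LY2157299, against 7.92 with shCtr. UGT2B17, a main androgen-inactivating enzyme of prostate, read 6.52 with shFOXA1 and 7.12 with LY2157299, against 7.90 with shCtr. UGT2B15 was the member short of 2-fold, at 5.54 with shFOXA1 and 6.34 with shCtr. Of 4 measured UGT1A enzymes 2 were higher, against 1.12% of all genes, with a median of 1.49. UGT1A1, the bilirubin-conjugating enzyme, read 8.45 with shFOXA1 and 7.18 with LY2157299, against 5.96 with shCtr, and UGT1A6 read 7.61 with shFOXA1 and 6.63 with LY2157299, against 5.58 with shCtr. The UGT1A members share their last exons, so their probes may read each other. Of 18 AKR1C and androgen metabolism genes 4 were called higher and none lower, against 1.12% and 0.377% of all genes. The list median of 0.07 moved to -0.06 under median scaling, where the median of all genes was -0.13. AKR1C2, which inactivates dihydrotestosterone, read 8.45 with shFOXA1 and 7.29 with LY2157299, against 6.79 with shCtr. CYP3A5, an oxidase of steroids and drugs, read 7.56 with shFOXA1 and 6.18 with shCtr. AKR1C4, a liver-type member of the same family, was 1.62 higher, and HSD3B1, an enzyme of androgen synthesis, was at least 1.15 higher. AKR1C3, which makes testosterone, read 5.68 with shFOXA1 and 5.06 with shCtr and was not a call. In prostaglandin metabolism PLA2G2A, a secreted phospholipase, read 8.42 with shFOXA1 and 6.73 with shCtr, and SLCO2A1, the prostaglandin transporter, was 1.06 higher. HPGD, which inactivates prostaglandins, read 5.57 with shFOXA1 and 5.48 with LY2157299, against 7.34 with shCtr.

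The promoters of UGT2B11 and UGT2B10 are shown because both genes were lower and are neighbours. The UGT2B11 promoter lies on the minus strand at chr4:69214699-69214998 and the UGT2B10 promoter on the plus strand at chr4:68815744-68816043, both on GRCh38.p14. They are 90.1% identical over 304 aligned columns, and neither holds any of the motifs searched, so no letters are in capitals. UGT2B11 and UGT2B15 are 70.2% identical over the same windows. The TRIM49C and TRIM49 promoters are 99.7% identical, the most of any TRIM pair aligned. TRIM49C differed by -2.14, and TRIM49, near the floor, has only a bound of -0.15, so the pair cannot be compared. Promoters of TRIM genes called lower were less alike. Their identity ran between 42.2% (TRIM49D1 with TRIM49D2) and 68.1% (TRIM48 with TRIM49D2), with TRIM48 and TRIM51 at 48.5%.
UGT2B11: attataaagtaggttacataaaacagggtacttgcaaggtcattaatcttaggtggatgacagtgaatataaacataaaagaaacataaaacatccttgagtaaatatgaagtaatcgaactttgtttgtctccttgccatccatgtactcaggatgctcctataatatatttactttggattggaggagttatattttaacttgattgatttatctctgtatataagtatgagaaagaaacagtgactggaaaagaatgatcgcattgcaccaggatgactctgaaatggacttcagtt
UGT2B10: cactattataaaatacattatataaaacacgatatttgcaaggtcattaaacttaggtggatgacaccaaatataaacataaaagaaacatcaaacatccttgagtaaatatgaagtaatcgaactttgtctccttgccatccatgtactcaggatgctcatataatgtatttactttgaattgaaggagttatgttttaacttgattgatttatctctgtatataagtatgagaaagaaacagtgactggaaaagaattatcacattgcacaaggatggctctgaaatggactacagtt

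Cell cycle genes were lower in small steps that the 2-fold rule does not reach. Of 65 measured G2/M and mitosis genes 63 lay below 0 and 0 were called, with a median of -0.41, and of 53 G1/S and replication genes 49 lay below 0 and 0 were called, with a median of -0.40, against 52.2% of all genes below 0. At 1.5-fold, 10 of the G2/M and 6 of the G1/S genes were lower. MCM2, a subunit of the replicative helicase, read 7.49 with shFOXA1 and 7.83 with LY2157299, against 8.25 with shCtr. E2F7, a repressor of the E2F family, read 5.56 with shFOXA1 and 6.12 with LY2157299, against 6.35 with shCtr. SPC25, a kinetochore protein, read 5.67 with shFOXA1 and 6.14 with LY2157299, against 6.45 with shCtr. The inhibitor array lay between the others for all 3. H4C3, a replication-dependent histone, read 11.79 with shFOXA1 and 12.76 with shCtr, 1.96-fold lower. It was the lowest of 30 measured histone genes, most of which went the other way. Of that list 22 lay above 0, with a median of 0.19, and 3 were at least 1.5-fold higher. MKI67 gave -0.03 near the floor, MYC gave -0.01 and CDKN1A, the cell cycle inhibitor p21, gave 0.27.

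Receptors, phosphatases and transcription regulators outside the lists were also among the higher genes. They were chosen for the text after their values were seen. IRX3, a homeobox factor, read 10.86 with shFOXA1 and 10.68 with LY2157299, against 9.07 with shCtr. ID2, which binds helix-loop-helix factors and keeps them off DNA, was higher on both of its probes, by 1.62 and 1.55. TLE1, a corepressor of the Groucho family, read 8.44 with shFOXA1 and 8.35 with LY2157299, against 6.85 with shCtr. The inhibitor array stayed near shFOXA1 for IRX3 and TLE1. ACKR3, a scavenging receptor for the chemokine CXCL12, read 9.81 with shFOXA1 and 9.71 with LY2157299, against 8.08 with shCtr. GPER1, a G-protein-coupled receptor for oestrogens, was higher by 1.13 and 1.07 on its brighter probes, while a dimmer probe, undetected with shCtr, read 5.19 with shFOXA1. GRPR, the receptor for gastrin-releasing peptide, read 6.46 with shFOXA1 and 5.27 with shCtr. DUSP2, a phosphatase of MAP kinases, read 7.96 with shFOXA1 and 6.59 with shCtr. MAP3K8, a kinase upstream of ERK, read 6.64 with shFOXA1 and 5.39 with shCtr. DEPTOR, an inhibitor of mTOR, was higher on both of its probes, by 1.29 and 1.03. AMOT, a scaffold of the Hippo pathway, read 7.97 with shFOXA1 and 8.31 with LY2157299, against 6.40 with shCtr. NPC1, which exports cholesterol from lysosomes, read 10.25 with shFOXA1 and 9.13 with shCtr. CAMK2N1, an inhibitor of the kinase CaMKII, read 11.87 with shFOXA1, 11.87 with LY2157299 and 10.74 with shCtr.

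Further lower genes outside the lists, among them peptide hormones, signalling proteins and enzymes, were also chosen after their values were seen. RLN2, a second relaxin, was at least 1.25 lower, with a level of 5.93 on the shCtr array. GCG, which encodes glucagon, read 4.74 with shFOXA1 and was 2.40-fold lower than with shCtr. NMU, the neuropeptide neuromedin U, read 6.02 with shFOXA1 and 7.07 with shCtr. For RLN2 and GCG the shFOXA1 value lay at or next to the floor. RAC3, a small GTPase, read 5.36 with shFOXA1 and 6.47 with LY2157299, against 6.81 with shCtr, so its inhibitor value lay nearer to the control. SPRY4, an inhibitor of receptor tyrosine kinase signalling, read 5.27 with shFOXA1 and 4.84 with LY2157299, against 6.33 with shCtr. LPAR3, a receptor for lysophosphatidic acid, gave -1.05 and -0.91 on its 2 measured probes. GNB4, a G-protein beta subunit, gave -1.10 and -0.90 on its 2 measured probes. MCCC2, a subunit of the carboxylase that breaks down leucine, read 7.50 with shFOXA1 and 8.64 with shCtr. GLDC, the glycine decarboxylase, read 5.03 with shFOXA1 and 6.16 with shCtr. PRUNE2 read 9.23 with shFOXA1 and 8.52 with LY2157299, against 10.35 with shCtr. NUP93, a component of the nuclear pore, read 8.71 with shFOXA1 and 9.80 with shCtr. PSMD3, a subunit of the proteasome, read 6.45 with shFOXA1 and 7.47 with shCtr.

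Several housekeeping and stress lists had 0 calls. With 1.12% of all genes higher and 0.377% lower, the lack of calls is no result about these lists. None of 60 ribosomal protein genes was called, and their differences ran between -0.25 and 0.26. None of 55 oxidative phosphorylation genes was called, with differences between -0.26 and 0.31. The p53 (23 measured), unfolded protein response (38), cholesterol synthesis (29), Notch (17), WNT (20), NRF2 (22) and metallothionein (8) lists also had 0 calls. Their medians were not all near that of all genes: metallothioneins lay at -0.29 with 7 of 8 below 0, cholesterol synthesis at -0.11 with 22 of 29 below 0, and NRF2 at 0.14 with 18 of 22 above 0. Of 19 heat shock chaperones 2 were higher, against 1.12% of all genes, while the list median was -0.01. The 2 were the small heat shock proteins CRYAB (2.24) and HSPB8 (1.43). Of 37 glycolysis and hypoxia genes 1 was higher, NDRG1, and 1 lower, ANKRD37 at -1.02, against 1.12% and 0.377% of all genes. EPAS1, which encodes the hypoxia factor HIF-2 alpha, read 6.22 with shFOXA1 and 4.92 with shCtr.

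**Figure D3:**
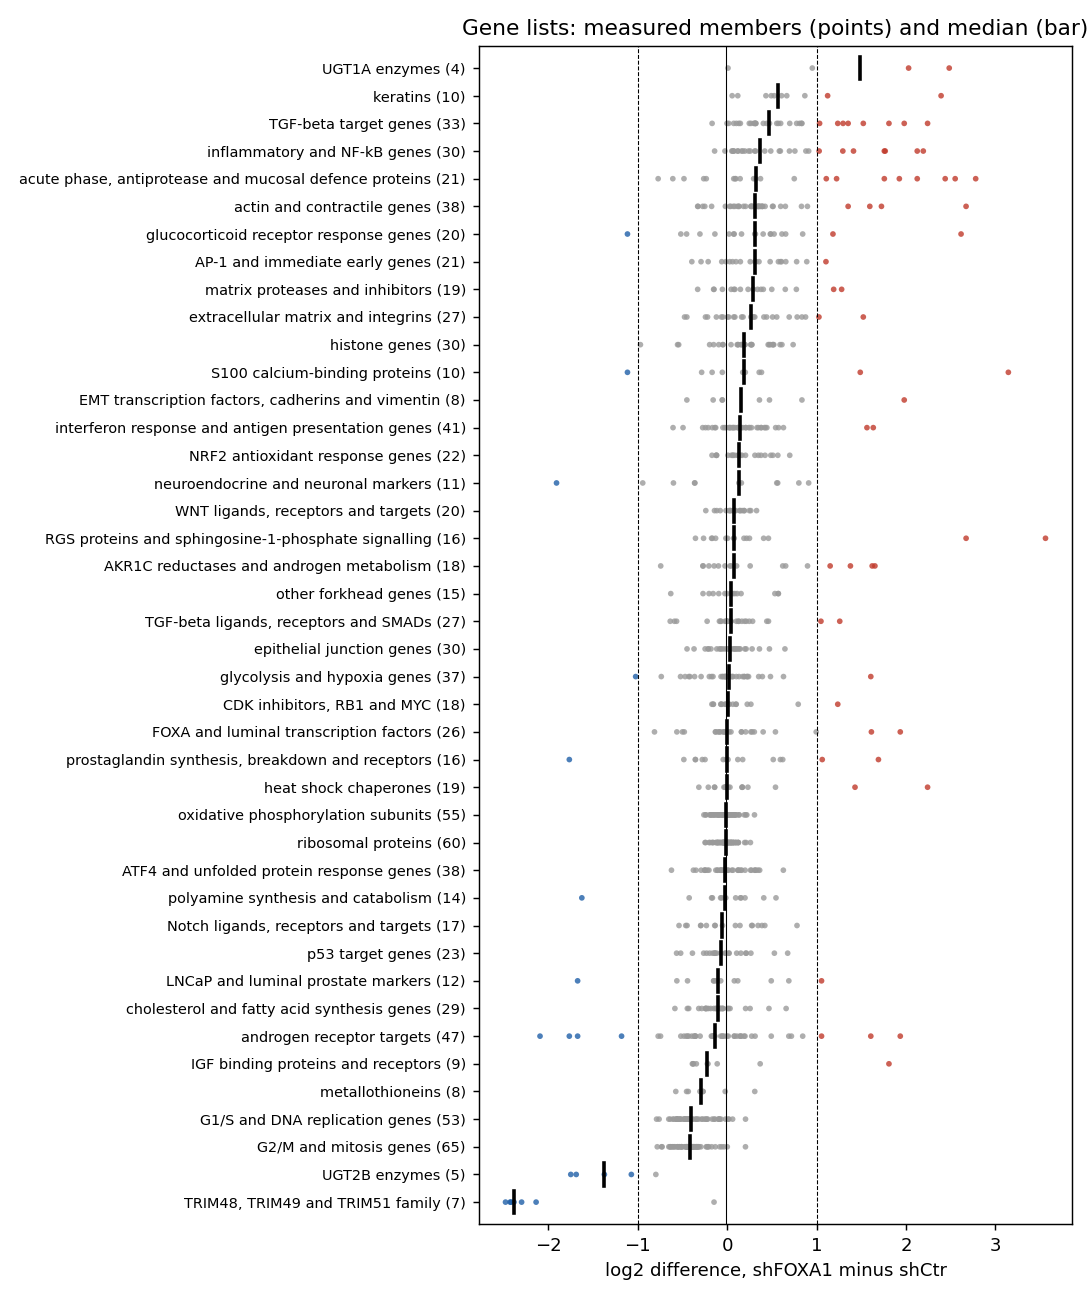
Log2 difference (shFOXA1 minus shCtr, horizontal axis) of every measured member of each gene list, with the list median as a bar, dashed lines at 2-fold and the number of measured members in brackets. UGT1A enzymes lie highest (median 1.49) and the TRIM family lowest (-2.38), and the G1/S and G2/M lists lie below 0 without reaching 2-fold.

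Some calls were neighbours on their chromosome. With 11136 measured genes placed in order on GRCh38.p14, 12 runs of adjacent measured genes were called the same way, holding 14 of 125 genes called upward and 12 of 42 called downward. The lower runs were TRIM48 with TRIM51 and TRIM49D1 with TRIM49D2 and TRIM49C on chromosome 11, UGT2B10 with UGT2B11 and UGT2B28 on chromosome 4, RLN2 with RLN1 on chromosome 9, and ELK4 with SLC45A3 on chromosome 1. The first 4 consist of closely related genes. ELK4, an ETS factor unrelated in sequence to SLC45A3, read 5.10 with shFOXA1 and 5.04 with LY2157299, against 6.17 with shCtr, and its second probe gave -1.08 beside -1.07. A pair of dimmer ELK4 probes, undetected with shFOXA1, read 5.50 and 5.05 with shCtr. Further genes near SLC45A3 were not calls, RAB29 at -0.90, NUCKS1 at -0.23 and NUAK2 at 0.03. Around ARG2 the neighbours RDH11, PIGH and PLEKHH1 gave -0.67, -0.67 and -0.64, and VTI1B gave -0.31, all short of 2-fold. The measured genes next to TARP, STARD3NL and VPS41, gave -0.40 and 0.12. The higher runs paired GBP1 with GBP2 and S100A9 with S100A8 on chromosome 1, MMP7 with MMP12 on chromosome 11, CCL2 with CCL8 on chromosome 17, GAS1 with DAPK1 on chromosome 9, KLF6 with AKR1C2 on chromosome 10 and AP1S2 with GRPR on chromosome X. The last 3 pairs are not related genes, and adjacent measured genes need not be direct neighbours.

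**Figure D4:**
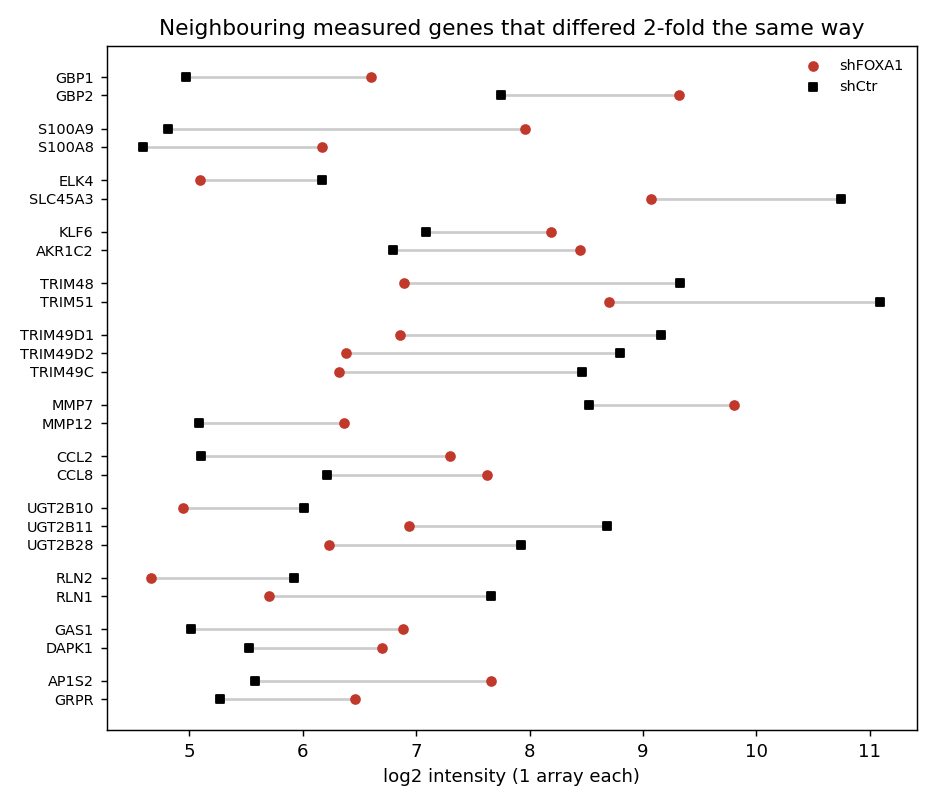
Log2 intensity (horizontal axis) on the shFOXA1 and shCtr arrays of the 12 runs of neighbouring measured genes that differed at least 2-fold the same way, with 1 row per gene and a gap between runs. In the MMP7 and MMP12 run shFOXA1 lies right of shCtr by 1.28 in both genes, and in the ELK4 and SLC45A3 run it lies left, by -1.07 and -1.67.

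A second probe gave a further reading of some calls on the same arrays. Of 27 higher genes with a second probe detected on both arrays, 24 were at least 1.5-fold higher on it too, and of 7 such lower genes all 7 were at least 1.5-fold lower. The second probe is the next brightest of those detected on both arrays. The exceptions were NEDD9, whose second probe gave -0.12 and a still dimmer one 0.36, TMEM184C with 0.29 and RTN1 with 0.41. RTN1 read 9.16 with shFOXA1 and 7.18 with shCtr on its brightest probe, and 5.23 with shFOXA1 and 4.81 with shCtr on the second, which is close to the floor. A further RTN1 probe, undetected with shCtr, read 5.63 with shFOXA1. Over the 2099 genes with exactly 2 probes detected on both arrays, the 2 differences had a Pearson correlation of 0.70 and a Spearman correlation of 0.56, across genes, which are not independent replicates. In all, 88 of 125 higher genes and 35 of 42 lower genes rested on 1 measured probe. A measured probe is detected on at least 1 of the 2 arrays, so probes undetected on both are left out of these counts. Some called genes have such probes, which did not show the difference. Those of AKR1C2 differed by between -0.09 and 0.01, and that of AKR1C4 by 0.03.

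**Figure D5:**
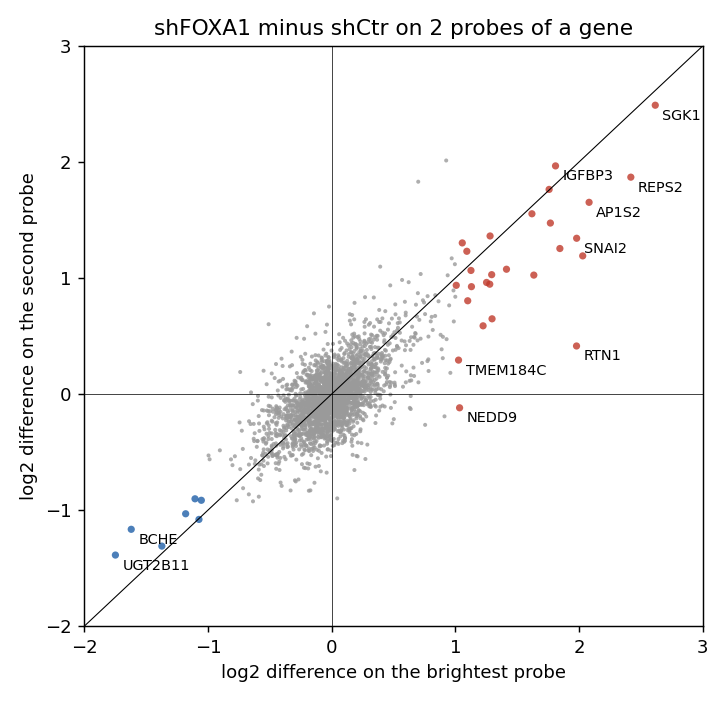
Log2 difference (shFOXA1 minus shCtr) on the second probe (vertical axis) against the brightest probe (horizontal axis) of genes with at least 2 probes detected on both arrays, with the line of equal values. SGK1 (2.62 and 2.49) and UGT2B11 (-1.75 and -1.39) lie near that line, while NEDD9 (1.03 and -0.12) and RTN1 (1.98 and 0.41) lie off it.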

How the data were processed

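RNA of 5 cultures was measured on 5 Illumina bead arrays, 1 per culture, and read with GenomeStudio, per the submitters' processing notes. The deposited scanner table holds mean bead intensities that the authors had not normalised, per the file headers, and their values show no background subtraction. Its detection p-values compare each probe with negative controls, per the file headers. A second deposited table holds the authors' processed intensities, made in a way that neither labels nor headers state.

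Intensities were background-corrected with neqc of limma 3.58.1 in R 4.3.3 (normexp, offset 16, quantile normalisation over the 5 arrays) and taken to log2 from the authors' values. A gene was read by its brightest named probe over the 2 arrays, among probes with a detection p below 0.01 on at least 1 of them. An undetected dim side was raised to the lowest detected level of its array. Of 47306 probes, 30107 carry a single symbol, 8 carry several and 17191 are unnamed in the platform annotation, and 30068 were matched by Entrez identifier to a GRCh38.p14 gene table, with 0 symbols changed. The array's own genome build is not stated.

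With 1 array per group no test was made. Genes were called at 2-fold. Named were the 20 largest differences each way, in each gene list up to 5 members furthest from 0, and some pathway genes set by name. Other genes at 2-fold were named after their values were seen. The comparison, the members of the 46 lists and the named genes were chosen with earlier results of these data known. The code was tested on simulated data. Python was used with pandas for tables and matplotlib for figures.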

Additional observations from a re-analysis of the deposited data

How the results depend on the processing

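Against 125 higher and 42 lower genes in the main values, the 2-fold count was 49 and 15 without background correction, 68 and 22 with a normexp offset of 50, and 237 and 127 in the authors' processed values. The first 2 settings compress differences of dim genes by construction, and for the authors' values the cause was not tested. Normalising the pair alone (126 and 43), median scaling (99 and 55), a detection p below 0.05 (129 and 42), detection on both arrays (110 and 40), the brightest probe over 5 arrays (124 and 42), the mean of detected probes (118 and 39) and no floor (132 and 43) stayed within 1.5 times. Each of the 125 and 42 genes kept its direction under every one of these settings that measured it. Of 315 genes named or called, 94 moved by over 1.5-fold under at least 1 setting. The list medians of TGF-beta targets, inflammatory, contractile, keratin and cell cycle genes kept their sign under each setting. FOXA1 lay between -0.66 and -0.54 throughout. Signal over background limits the dim genes: 15 of the higher and 2 of the lower calls are bounds. No paired analysis was possible because each group has 1 array.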

Other observations

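Probes without a gene symbol in the platform table went into no comparison above. Of 4390 such probes detected on at least 1 of the 2 arrays, 13 (0.296%) were at least 2-fold higher with shFOXA1 and 18 (0.41%) at least 2-fold lower. Probe ILMN_1721354 read 10.02 with shFOXA1 and 9.14 with LY2157299 added, against 5.22 with shCtr. That difference of 4.80 (27.8-fold) exceeds the 3.56 of RGS4, which was the highest of the named genes. ILMN_1750748 was at least 2.35 higher. The lowest were ILMN_3279169 at -2.62 and ILMN_3237897 at -2.60.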
